A study of Mus musculus with 24 samples.

Results

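The genes described here are Serpine2 and 5 other serpins, Serpinb9, Serpinb6a, Serpinb6b, Serpinb1a and Serpina3g. They were picked by gene name, 6 of the 45237 genes in the count table, and all 6 were among the 17097 genes that passed the filter on low counts. Transcripts were counted in NK cells sorted from mouse spleen, in 24 libraries of 7 groups. All mice were wild-type C57BL/6J, by default females of 7 to 9 weeks. The control group, 4 libraries, received no tumor cells. Mice of the other groups were injected in the tail vein with RMA, a T cell lymphoma line, or with RMA-KR, a single clone of RMA in which B2m was knocked out and the NKG2D ligand Rae1-β was added. RMA cells therefore display MHC class I, whereas RMA-KR cells lack it and engage an activating receptor of NK cells. Both tumors carry the fluorescent protein ZsGreen. NK cells were enriched by depletion of other cells, sorted as positive for NKp46 or NK1.1, stained in one color, and negative for CD3, CD5 and T cell receptors, among others, and taken at an early stage (day 2 for both tumors, 3 libraries each) and at an intermediate stage (day 4 for RMA, 3 libraries, and day 7 for RMA-KR, 5 libraries). The late groups were taken on day 9 for RMA and day 14 for RMA-KR, with 3 libraries each. After the early stage, the tumors differ in day as well as in kind, and these cannot be told apart. Mice in which the tumor had not grown were excluded by the study.

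Serpins are protease inhibitors that work as suicide substrates. A flexible stretch near the end of the protein, the reactive centre loop, is cut by the target protease, and the protease stays trapped on the inhibitor. Cytotoxic lymphocytes carry granzymes, the serine proteases of their lytic granules, and use serpins to protect themselves from granzyme that leaks into the cytosol. Serpine2, also called protease nexin-1, is a secreted inhibitor of thrombin, of plasminogen activators and of granzyme A. Serpinb9 is the cytosolic inhibitor of granzyme B, and Serpinb6b is an inhibitor of granzyme A. Serpinb6a acts on thrombin and cathepsin G, and Serpinb1a on the neutrophil proteases elastase, cathepsin G and proteinase 3. Serpina3g is an inhibitor of lysosomal cathepsins.

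The loop is what sets these inhibitors apart, so its coding bases are shown for each member, read from the Ensembl 96 coding sequence on the gene's own strand, 5′ to 3′. Lower case marks the 8 codons of the hinge, where the loop leaves the body of the protein, and capitals mark the 17 to 20 codons that follow.
Serpine2: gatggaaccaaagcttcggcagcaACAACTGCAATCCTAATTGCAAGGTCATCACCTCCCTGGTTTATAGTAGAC
Serpinb9: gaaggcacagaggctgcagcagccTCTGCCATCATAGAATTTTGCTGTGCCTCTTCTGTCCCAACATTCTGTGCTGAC
Serpinb6b: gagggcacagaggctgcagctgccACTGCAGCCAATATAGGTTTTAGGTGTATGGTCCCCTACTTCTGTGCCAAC
Serpinb6a: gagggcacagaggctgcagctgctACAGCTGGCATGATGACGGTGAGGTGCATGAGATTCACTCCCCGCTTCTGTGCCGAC
Serpinb1a: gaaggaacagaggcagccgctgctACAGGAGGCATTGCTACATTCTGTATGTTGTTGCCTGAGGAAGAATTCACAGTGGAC
Serpina3g: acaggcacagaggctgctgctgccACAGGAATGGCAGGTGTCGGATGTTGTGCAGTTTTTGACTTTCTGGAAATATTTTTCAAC
The hinge was alike between Serpinb6a and Serpinb6b, with 23 of 24 bases identical, whereas Serpine2 shared 13 to 16 of 24 bases with the other members. The capital parts differ in letters between all members, and their length is 17 codons in Serpine2 and Serpinb6b, 18 in Serpinb9, 19 in Serpinb6a and Serpinb1a and 20 in Serpina3g. Serpinb6a and Serpinb6b thus differ there in both, although their whole coding sequences were 85.5% identical. Aligned with Serpine2 in the same way, the coding sequences of the 4 Serpinb members were identical to it over 44.8% to 48.2% of the alignment's columns. Serpina3g was identical over 36.9%, but its annotated coding sequence has 744 bases against 1191 in Serpine2. Columns without a Serpina3g base count as not identical, so this share cannot be compared with those of the Serpinb members.

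On the GRCm38 assembly, Serpine2 lies on the minus strand at chr1:79794197-79861180, and its longest coding transcript has 9 exons. Serpinb9 (chr13:33003250-33017957, plus strand), Serpinb6b (chr13:32965209-32979067, plus strand), Serpinb1a (chr13:32842092-32851185, minus strand) and Serpinb6a (chr13:33917918-34002794, minus strand) lie in 1 region of chromosome 13. Serpina3g (chr12:104236245-104241939, plus strand) is a protein-coding gene among near copies on chromosome 12. Reads were 50 bases long. No 50-base word of the Serpine2 transcript occurs in another gene, and 0.38% of those of Serpinb9 do. The share was 20.7% for Serpinb6a, with Serpinb6b among the genes that hold the same words, and 16% for Serpina3g, with Serpina3f among them. For Serpinb6b and Serpinb1a it was 3.12% and 3.42%. Serpinb6a also overlaps 3 genes on the opposite strand (1110046J04Rik, Nqo2 and Ripk1), and the sources used here do not state whether reads were counted by strand, so some of its counts may come from these genes.

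The libraries held between 5138651 and 14863500 counts, with a median of 10489204. Levels are given as normalized CPM, counts-per-million values scaled by TMM (a scaling that equalizes the bulk of genes between libraries), except that marker genes and sums over marker lists or immediate early genes are CPM without this scaling. The defining NK cell markers were high in all 24 libraries, with Ncr1 between 1553 and 3913 CPM, while Cd14 of monocytes was at 0 in 20 libraries and Cd3e of T cells and of the lymphoma in 12. Other genes of the marker lists were present in every library, such as Trbc1 (171 to 425 CPM) and Cd28 (59.7 to 178.5) of the T cell list, Ighm (221.4 to 502.4) of the B cell list, Ly6c2 (73 to 563) of the monocyte list and Itgax (371.3 to 1137.7) of the dendritic cell list. Cd3d reached 33.1 and Cd68 74.5 CPM. The part of other cells in the results was not tested. The labels number the libraries of a group but do not say that each is a separate mouse, and the study's count of mice, given for its control and late groups, does not match the number of control libraries. A p-value therefore measures the spread between these libraries, which may be technical. In 4 libraries, control 4 and replicates 3, 4 and 5 of RMA-KR intermediate, 16 immediate early genes (Fos, Jun and the like) summed to between 1323 and 1515 CPM, against 4096 to 9671 in the other 20. Among these 20, the sum was also lower in RMA intermediate, at 4445 to 4891 CPM, and in RMA late, at 4096 to 5467, than in RMA early, at 6487 to 8475, and in controls 1 to 3, at 7368 to 8470, without overlap. The part of this in the results was not tested, and calls that changed without them are named with their values.

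How the members were chosen bears on what can be tested. Serpine2, Serpinb6b, Serpina3g and Serpinb6a had been picked with their changes at the late stage in view, so the late levels are a description without a test. Tests were made for 8 comparisons of the early and intermediate groups, in edgeR's quasi-likelihood model over all 24 libraries, with Benjamini-Hochberg adjustment over all 17097 genes. A gene was called with an adjusted p under 0.05 and a change above 2-fold. The 4 comparisons with control share their control libraries with the late comparisons and with each other.

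Serpine2, the inhibitor of thrombin and granzyme A, was a low transcript in NK cells of mice without tumor and a higher one at the intermediate and late stages of RMA-KR. In the 4 control libraries it stood at 9.24, 13.6, 7.48 and 1.7 normalized CPM. Counts in control ran from 19 to 141 reads, so the precision of this baseline is limited, and control 4 is the lowest of all 24 libraries. On day 2 of RMA-KR it read 7.7, 10.8 and 5.96 CPM, inside the control range. On day 7 of RMA-KR the 5 libraries gave 54.6, 40.5, 62.1, 27.6 and 77.9 CPM, all above each control and each day 2 library. On day 14 of RMA-KR the values were 141.3, 134.1 and 141.7 CPM, the highest of the series and close together.

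**Figure D1:**
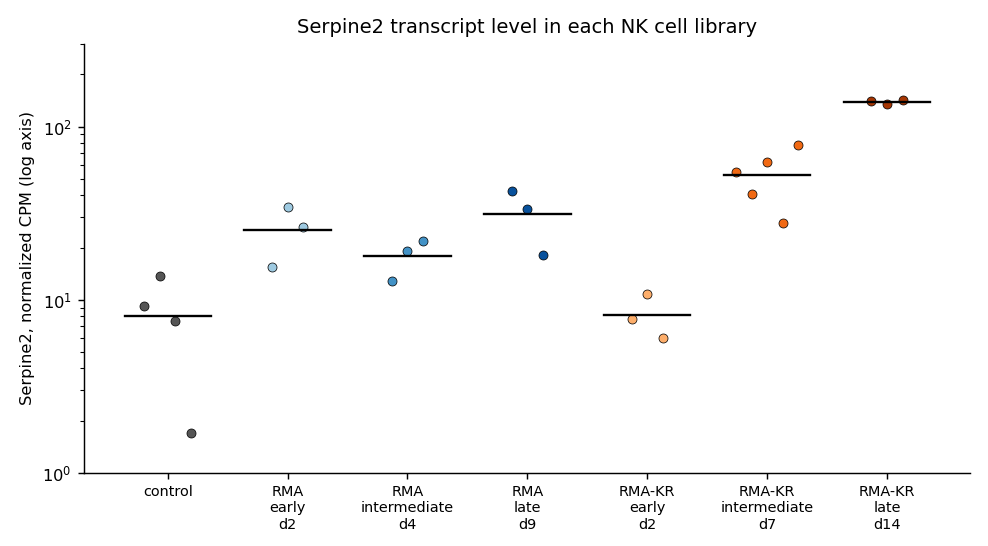
Serpine2 level (normalized CPM, log axis) in each of the 24 libraries by group; points are libraries and bars are group means. The RMA-KR libraries go from 5.96 to 10.8 on day 2 through 27.6 to 77.9 on day 7 to 134.1 to 141.7 on day 14, while the RMA libraries stay between 12.8 and 42.3.

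In mice with RMA, the Serpine2 values were as follows. They were 15.5, 34.2 and 26.3 CPM on day 2, all above the 4 controls. On day 4 they were 12.8, 19.1 and 21.9 CPM, which overlaps the highest control. On day 9 they were 42.3, 33.6 and 18.2 CPM. All RMA libraries of the 3 stages therefore lay below all RMA-KR libraries of day 14, and the RMA stages overlapped each other. Ordered by mean, the groups ran from control (8 ± 4.93, SD, n = 4) and RMA-KR early (8.15 ± 2.45, n = 3) through RMA intermediate (17.9 ± 4.67, n = 3), RMA early (25.3 ± 9.41, n = 3) and RMA late (31.4 ± 12.2, n = 3). RMA-KR intermediate (52.5 ± 19.4, n = 5) and RMA-KR late (139 ± 4.23, n = 3) stood at the top. Neighbours in this order overlapped, except RMA-KR early with RMA intermediate and RMA-KR intermediate with RMA-KR late.

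The test of Serpine2 within the RMA-KR series, from day 2 to day 7, compared groups that are in no late comparison. Its spread was still estimated over all 24 libraries, the late ones included, so the p-value is not independent of them. The fit of both groups alone, which leaves the late libraries out, is given below. Serpine2 rose by 2.69 on the log2 scale (SE 0.5, edgeR adjusted p = 0.0158), higher in 5 of 5 libraries of day 7 than in any of day 2. In this comparison 79 genes, 0.462% of those tested, were called, and 2 of the 6 members were among them. Against control, day 7 was higher by 2.72 (SE 0.44, edgeR adjusted p = 0.0337), a mean of 52.5 against 8 CPM. Only 3 genes, 0.0175% of those tested, were called there, all higher, with Serpine2 as 1 of them. Serpina3g was the other member called between day 2 and day 7.

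These calls of Serpine2 depended on single libraries, while the direction did not. Against control, the call was lost without control 1 (edgeR adjusted p = 0.332), control 3 (0.149), control 4 (0.067), or RMA-KR intermediate 1 (0.0739), 3 (0.0848) or 5 (0.106), with log2 changes of 2.37 to 2.79. It was also lost when only the libraries of both groups were fitted, at the same change of 2.72 (edgeR adjusted p = 0.325). Against RMA-KR early, it was lost without RMA-KR early 1 (edgeR adjusted p = 0.0646), 2 (0.0629) or 3 (0.0669) or without RMA-KR intermediate 3 (0.0535), with changes of 2.49 to 2.94, and in the fit of both groups alone (0.111).

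The 4 libraries low in immediate early genes bear on this result, because 3 of the 5 RMA-KR intermediate libraries are among them. In the other libraries, Serpine2 averaged 47.5 CPM in the 2 RMA-KR intermediate libraries and 10.1 CPM in the 3 controls, a ratio of 4.7. Among the low libraries, it averaged 55.8 CPM in 3 RMA-KR intermediate libraries against 1.7 CPM in the 1 control. With 1 control among the low libraries, that difference has no replicate check. With the 4 libraries left out, the change against control was 2.23 (edgeR adjusted p = 0.32) and against RMA-KR early 2.53 (0.14). With a term for them in the model it was 3.07 (edgeR adjusted p = 0.0856) and 3.09 (0.156).

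**Figure D2:**
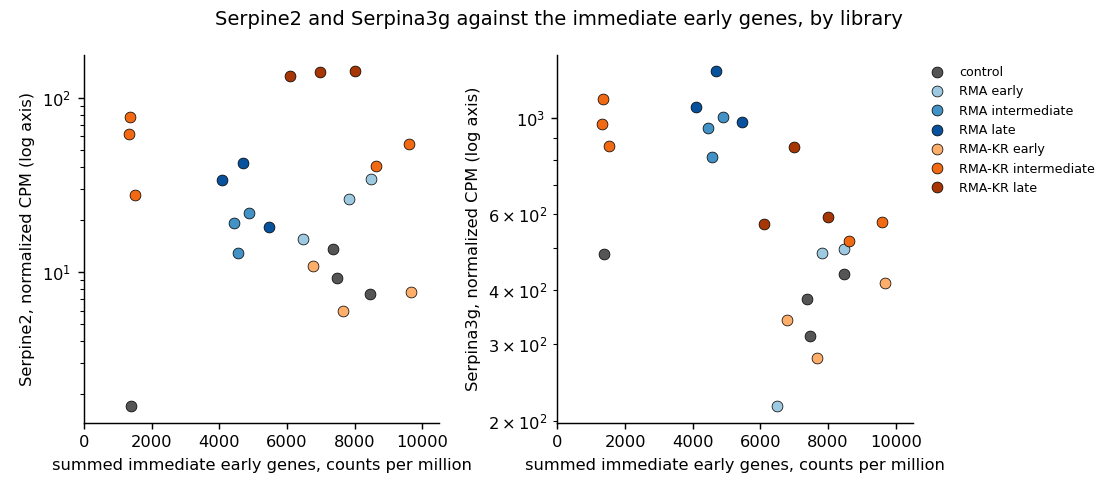
Serpine2 and Serpina3g levels (normalized CPM, log axes) against 16 immediate early genes summed (CPM without TMM scaling); each point is a library, colored by group. The 4 libraries at 1323 to 1515 CPM hold the lowest Serpine2 value, 1.7 in a control, and 3 RMA-KR intermediate values, among them the lowest and the highest of that group, 27.6 and 77.9.

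On day 2 the Serpine2 values lay the other way round, without a call by the main test. RMA early was higher than control by 1.67 on the log2 scale (SE 0.46, edgeR adjusted p = 0.486), a comparison in which 0 genes, 0% of those tested, were called by edgeR, 7.04% had an unadjusted p under 0.05, and DESeq2 called 60 genes with Serpine2 among them (adjusted p = 0.0454, and 0.0694 with betaPrior=TRUE, the setting of the study). No member was called by edgeR, and Serpine2 was the 1 member with an unadjusted p under 0.05 (0.00155). RMA early exceeded RMA-KR early by 1.64 (SE 0.51, edgeR adjusted p = 0.203), with every RMA library above every RMA-KR library. Here 0.304% of genes were called and no member was, 1 member (Serpine2) having an unadjusted p under 0.05 (0.00368), as did 12.3% of all genes. DESeq2 called Serpine2 there with default settings (adjusted p = 0.0365) and not with betaPrior=TRUE (0.0528). At the intermediate stage the estimate had the opposite sign, -1.55 for RMA on day 4 against RMA-KR on day 7 (SE 0.47, edgeR adjusted p = 0.175), again without a call. Without the libraries low in immediate early genes it was -1.39 (edgeR adjusted p = 0.177). In that comparison 0.503% of genes were called and no member was, 3 members having an unadjusted p under 0.05, beside 14.2% of all genes. Without the filter on low counts, edgeR called Serpine2 (-1.54, adjusted p = 0.0472). DESeq2 called Serpine2 with default settings (adjusted p = 0.018) and with betaPrior=TRUE (0.0138).

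The difference between the tumors in the change from early to intermediate was tested directly, in a contrast added after these values had been seen. Serpine2 moved by -0.5 (SE 0.49) in RMA and by 2.69 (SE 0.5) in RMA-KR. The difference of these changes was -3.19 (SE 0.69, edgeR adjusted p = 0.0556) and was not called, where 0.129% of genes were. Under 23 alternative settings it ran from -3.59 to -2.56 with adjusted p from 0.00031 to 0.168, and 5 of them called it.

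Platelets and megakaryocytes carry Serpine2, so their markers are given beside it. The sum of 8 markers was 2.84 to 5.32 CPM in control and 9.72 to 31.8 in RMA early, where Serpine2 was 15.5 to 34.2. It was 20.6 to 36.2 in RMA-KR early, where Serpine2 was at control level, and 1.85 to 5.11 in RMA-KR late, where Serpine2 was highest. In RMA-KR intermediate it was 0.61 to 15.2, in RMA intermediate 1.1 to 2.39 and in RMA late 5.74 to 16.6. The platelet gene Ppbp was at 0 in 14 libraries and Pf4 in 9. The 11 T cell and T lymphoma markers summed to 341.3 to 486.9 CPM in control and 362.9 to 538 in RMA-KR late. In RMA intermediate they summed to 265.7 to 308.1, below all controls. The 11 macrophage and monocyte markers summed to 378.5 to 571.7 in control and 148.2 to 208.3 in RMA-KR late. The 9 dendritic cell markers summed to 415.3 to 718.9 CPM in control and, without overlap, to 825.3 to 926.8 in RMA-KR late, with 530.5 to 1253.2 in RMA-KR intermediate. Most of this sum is Itgax. Of the same list, Bst2 (13 to 101.5 CPM) and Zbtb46 (0.62 to 52.9) were also present in every library. H2-Ab1 was at 0 in 4 libraries, Xcr1 in 7, Flt3 in 11, Cd209a in 14, Siglech in 15 and Clec9a in 18. The part of these cells in the Serpine2 level was not tested. In bulk libraries, fewer cells that express a gene and less of its RNA per cell cannot be told apart.

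Serpina3g, the cathepsin inhibitor, was higher at the intermediate stage of both tumors than at the early stage. The controls read 313.5, 381.1, 436.3 and 483.6 CPM, RMA early 216, 498.9 and 487.7, and RMA-KR early 415.4, 342.1 and 278.2. RMA early lay on both sides of the control range, and RMA-KR early overlapped it. RMA intermediate then read 810.3, 946.1 and 1003 CPM, and RMA-KR intermediate 574.2, 518.7, 966, 861.2 and 1103, all 8 above the highest control and the highest early library. From day 2 to day 4 of RMA it rose by 1.2 on the log2 scale (SE 0.29, edgeR adjusted p = 0.0278), in a comparison with 1.73% of genes called. From day 2 to day 7 of RMA-KR it rose by 1.22 (SE 0.26, edgeR adjusted p = 0.0322). The difference of the changes was -0.02 (SE 0.38, edgeR adjusted p = 1), RMA minus RMA-KR. It was 0.54 without the 4 libraries low in immediate early genes (edgeR adjusted p = 0.756) and 0.43 with a term for them (0.804), so its sign was not stable and it was called in none of 23 alternatives.

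Against control, Serpina3g rose by 1.19 on day 4 of RMA (SE 0.26, edgeR adjusted p = 0.0136), where 1.65% of genes were called and Serpina3g was the 1 member among them. On day 7 of RMA-KR the difference was 0.99 (SE 0.24, edgeR adjusted p = 0.359), short of the call. DESeq2 called it with default settings, at 1.02 (adjusted p = 0.0132), and with betaPrior=TRUE it gave 0.95 (adjusted p = 0.0121), under the 2-fold limit. The RMA call against control was lost without control 1 (edgeR adjusted p = 0.0661), RMA intermediate 2 (0.0581) or RMA intermediate 3 (0.0736). The call from RMA early to intermediate was lost without RMA early 1 (0.9, edgeR adjusted p = 0.15), the library at 216 CPM, or RMA intermediate 1 (0.0508), 2 (0.0804) or 3 (0.117), and in the fit of both groups alone (0.112).

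In RMA-KR the 3 libraries low in immediate early genes were the 3 highest for Serpina3g, at 861.2 to 1103 CPM, against 518.7 and 574.2 in the others. The low control, at 483.6, was also the highest control. Between RMA-KR intermediate and control the ratio was 1.45 among the other libraries and 2.02 among the low ones. Without the 4 low libraries the rise from RMA-KR early was 0.65 (edgeR adjusted p = 0.573), and with a term for them 0.77 (0.412). The RMA groups hold none of these 4 libraries, but the immediate early sum was lower in RMA intermediate than in RMA early as well, as given above. The RMA-KR call was also lost without RMA-KR early 1 (edgeR adjusted p = 0.065), 2 (0.133) or 3 (0.136) or RMA-KR intermediate 3 (0.0987), 4 (0.0886) or 5 (0.1), and in the fit of both groups alone (0.154). With the replicate number as a block this call was lost as well, with the values given in the closing section.

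Serpinb6b, the granzyme A inhibitor, was not called in any of the 8 comparisons. Of control and the early and intermediate groups, its mean was highest on day 4 of RMA. It read 568.9, 539.7, 612.7 and 442.4 CPM in control and 395.5, 512.3 and 565.4 in RMA early, which overlap. In RMA intermediate it read 1081, 757 and 901.8 CPM, all above these 7 libraries. The difference from RMA early was 0.9 on the log2 scale (SE 0.22, edgeR adjusted p = 0.0291) and from control 0.76 (SE 0.2, edgeR adjusted p = 0.0428). Both passed the adjusted p but not the 2-fold limit. The adjusted p against control went above 0.05 without any 1 of the 7 libraries (edgeR, 0.0546 to 0.255), without the libraries low in immediate early genes (0.149) and with a term for them (0.0552). The adjusted p against RMA early did so without RMA early 1 (edgeR, 0.158) or 2 (0.0621) or RMA intermediate 1 (0.133) or 3 (0.102), and in the fit of both groups alone (0.0826). Without RMA early 3 or RMA intermediate 2, that comparison passed both limits, at 1 (edgeR adjusted p = 0.0273) and 1.01 (0.0439).

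In RMA-KR, Serpinb6b read 493.4, 737.4 and 722.2 CPM on day 2 and 554.6, 752.8, 632.3, 606.5 and 556 on day 7. The change between them was -0.07 (SE 0.19, edgeR adjusted p = 0.927). The difference of the changes in both tumors was 0.96 (SE 0.29, edgeR adjusted p = 0.216), and RMA intermediate exceeded RMA-KR intermediate by 0.56 (SE 0.19, edgeR adjusted p = 0.26). A difference between the tumors in Serpinb6b was thus not called in the main fit, and the difference of the changes was called in 1 of 23 alternatives, without the filter on low counts (edgeR adjusted p = 0.025).

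Serpinb9, the granzyme B inhibitor, had the highest mean level per length of the 6 in control. Divided by the length of the longest coding transcript, the control level was 422.4 ± 120.4 CPM per kilobase (SD, n = 4), against 246.7 ± 32.9 for Serpinb6b, 223.9 ± 40.6 for Serpina3g, 19.5 ± 5.63 for Serpinb6a and 3.62 ± 2.23 for Serpine2. By CPM, the controls read 1302, 1449.7, 2047 and 1067, and RMA early 1410.3, 1657 and 1689.8. RMA intermediate read 2056, 2458 and 2407 CPM, all above the highest control by a narrow margin at the low end. The difference from control was 0.65 (SE 0.19, edgeR adjusted p = 0.0678), and that from RMA early 0.54 (SE 0.2, edgeR adjusted p = 0.161).

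In RMA-KR, Serpinb9 stayed within the control range, at 1489 to 1723 CPM on day 2 and 1199 to 1792 on day 7. RMA-KR intermediate against control gave 0 on the log2 scale (SE 0.16, edgeR adjusted p = 0.999). RMA intermediate exceeded RMA-KR intermediate by 0.65 (SE 0.18, edgeR adjusted p = 0.11), with no overlap between their libraries, and by 0.44 without the libraries low in immediate early genes (0.512).

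Serpinb6a, the inhibitor of thrombin and cathepsin G, was low and scattered. It read 45.1, 28.6, 32.1 and 23.2 CPM in control, 22.3, 62.4 and 50.5 in RMA-KR early, and 26.4, 34.8, 51.4, 18.3 and 57.2 in RMA-KR intermediate. RMA early (64.4, 52 and 36) and RMA intermediate (71.8, 30.2 and 53.5) also overlapped control. Among the 8 comparisons its largest difference was 0.69 (SE 0.41, edgeR adjusted p = 0.392), for RMA intermediate against control.

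Serpinb1a was at or near the limit of detection, from 0 to 93 counts and at 0 in 7 libraries. The highest value, 9.59 CPM, came from RMA early 2, while RMA early 1 was at 0. It had 64 50-base words in common with near copies, and its fitted changes had standard errors of 1.85 to 2.32, too wide to show a change of several fold.

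**Figure D3:**
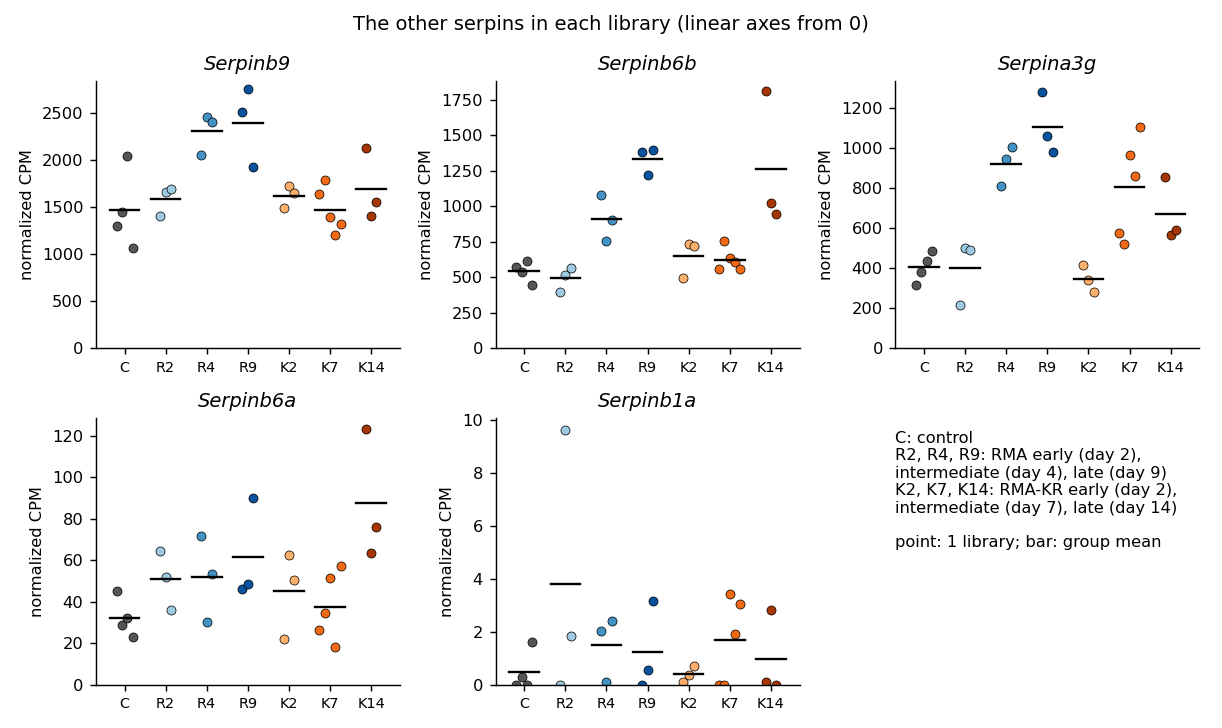
Levels of the other 5 serpins (normalized CPM, linear axes from 0) in each library by group; C is control, R2, R4 and R9 are RMA and K2, K7 and K14 are RMA-KR by day, and bars are means. Serpina3g is above all control and early libraries in both intermediate groups, while Serpinb9 and Serpinb6b are above control on day 4 of RMA and overlap control on day 7 of RMA-KR.

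Of the 8 comparisons, 4 had a member called. RMA-KR early against control, with 0.0819% of genes called, had no member called by edgeR or DESeq2. No member had an unadjusted p under 0.05 there, beside 8.71% of all genes. RMA-KR intermediate against control had 2 such members, beside 5.91%. RMA intermediate against control had 4 members with an unadjusted p under 0.05, beside 15.9% of all genes. RMA intermediate against RMA early had 3, beside 19.6%, and RMA-KR intermediate against RMA-KR early 2, beside 13.8%. In the last, Serpine2 and Serpina3g rose while Serpinb9, Serpinb6b and Serpinb6a differed by -0.14, -0.07 and -0.26, none passing the test. From early to intermediate in RMA, Serpina3g rose, and Serpine2 differed by -0.5 without passing the test.

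**Figure D4:**
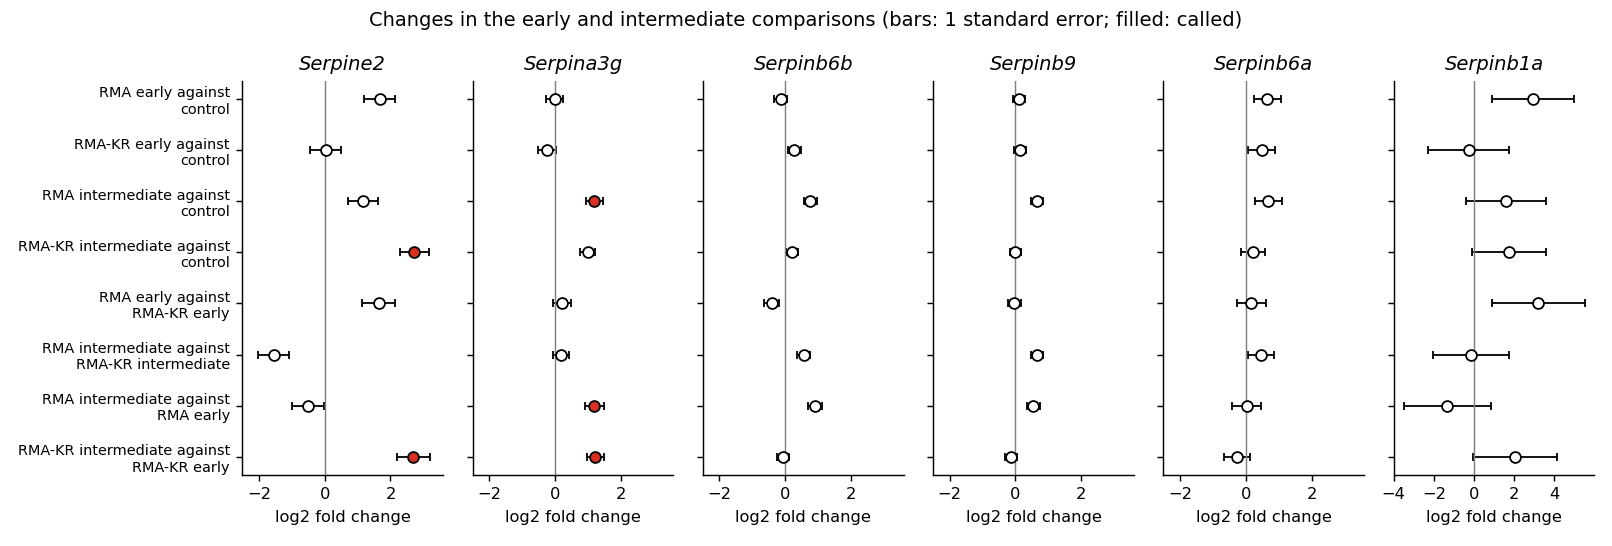
Log2 fold change of each member in the 8 tested comparisons; points are estimates, bars 1 standard error, and filled points were called. Filled points are Serpine2 in RMA-KR intermediate (2.72 against control and 2.69 against RMA-KR early) and Serpina3g in 3 comparisons (1.19 to 1.22), and Serpinb1a is on a wider axis.

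At the late stage the following levels describe the members and support nothing, since they were in view when the members were chosen. Serpine2 was 17.4 times its control mean in RMA-KR late and 3.92 times in RMA late, with log2 differences of 4.12 (SE 0.49) and 1.97 (SE 0.47). Serpinb6b read 1382, 1223 and 1399 CPM in RMA late and 1813, 1024.7 and 944.1 in RMA-KR late, above all controls in both, with differences of 1.3 (SE 0.2) and 1.22 (SE 0.2). RMA-KR late 1 stood apart as the highest of the 24 libraries. Serpina3g read 1280.3, 1057 and 980.3 CPM in RMA late against 856.7, 567.2 and 589.4 in RMA-KR late. It was the 1 member lying higher in RMA late without overlap, by 0.72 (SE 0.28), while Serpine2 was lower by -2.15 (SE 0.51).

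Serpinb6a stood at 123.5, 63.6 and 76.2 CPM in RMA-KR late and 46.3, 48.7 and 90.1 in RMA late, all above the highest control, 45.1. Serpinb9 read 2514, 2759 and 1926 CPM in RMA late and 2126, 1402 and 1557 in RMA-KR late, and both overlapped control. In RMA late and in RMA-KR late, 4 of 6 members did not overlap control, where 18% and 13.6% of all genes did not. Between the tumors 2 of 6 did not overlap, where 9.13% of all genes did not. The difference from control was 0.94 (SE 0.41) in RMA and 1.45 (SE 0.41) in RMA-KR for Serpinb6a, 1.45 (SE 0.26) and 0.73 (SE 0.26) for Serpina3g, and 0.71 (SE 0.19) and 0.21 (SE 0.19) for Serpinb9. Per length, Serpine2 reached 62.9 ± 1.94 CPM per kilobase in RMA-KR late (SD, n = 3), near Serpinb6a at 53.1 ± 19.1 and well under Serpinb6b at 574.8 ± 218.8.

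The granzymes that these serpins inhibit were described from a list of 14 granule genes, 9 of them tested. On day 4 of RMA, 8 of the 9 were higher than in control, with a median of 0.4 on the log2 scale against -0.29 for all genes, and 1 was called, where 1.65% of all genes were. The called gene was Gzmb, granzyme B, at 4489.6, 3973 and 4245 CPM in RMA intermediate against 990.1, 1569, 2887 and 811.3 in control. It rose by 1.44 (SE 0.3, edgeR adjusted p = 0.00834), and by 1.24 without the 4 libraries low in immediate early genes (0.0214). The call was lost in the fit of both groups alone (1.47, edgeR adjusted p = 0.0777). In RMA intermediate the dendritic cell markers summed to 848.3 to 955.8 CPM, above the 415.3 to 718.9 of control. As given above, most of this sum is Itgax, and 4 of the 9 dendritic cell markers had no counts in RMA intermediate. The T cell and T lymphoma markers summed to 265.7 to 308.1, below the 341.3 to 486.9 of control. Their part in the calls of this comparison, here and below, was not tested. On day 7 of RMA-KR, 4 of the 9 were higher than in control, with a median of -0.08 against 0.01 for all genes and no call, where 0.0175% of all genes were called. Gzmb read 1922, 1832, 1563, 969.3 and 1136 CPM there, inside the control range, and RMA intermediate exceeded RMA-KR intermediate by 1.51 (SE 0.28, edgeR adjusted p = 0.00771). This call was lost without the low libraries (1.19, edgeR adjusted p = 0.0998) and with a term for them (1.05, 0.132). Gzmb and its inhibitor Serpinb9 were thus both above control in all RMA intermediate libraries, Gzmb with a call and Serpinb9 without. Both were inside the control range in all RMA-KR intermediate libraries. Of all genes, 20.7% did not overlap control in RMA intermediate and 2.63% in RMA-KR intermediate.

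Gzma, granzyme A, was the most abundant of the granzymes named here and was not called in any of the 8 comparisons. It read 7779, 10651, 12409.5 and 6066 CPM in control and 12792, 8493 and 10914 in RMA intermediate. In RMA-KR intermediate it read 11566 and 12468 CPM in replicates 1 and 2 but 5030.5, 4757 and 4446 in replicates 3, 4 and 5. The last 3 are the libraries low in immediate early genes, and the low control, at 6066, was the lowest control. Prf1, the pore-forming protein perforin, showed the same split, at 4639 and 5271 CPM against 2933.5, 2811 and 2514. Serpine2 in these 3 libraries read 62.1, 27.6 and 77.9 CPM, on both sides of the other 2, while in the low control it was also the lowest of the controls, at 1.7.

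**Figure D5:**
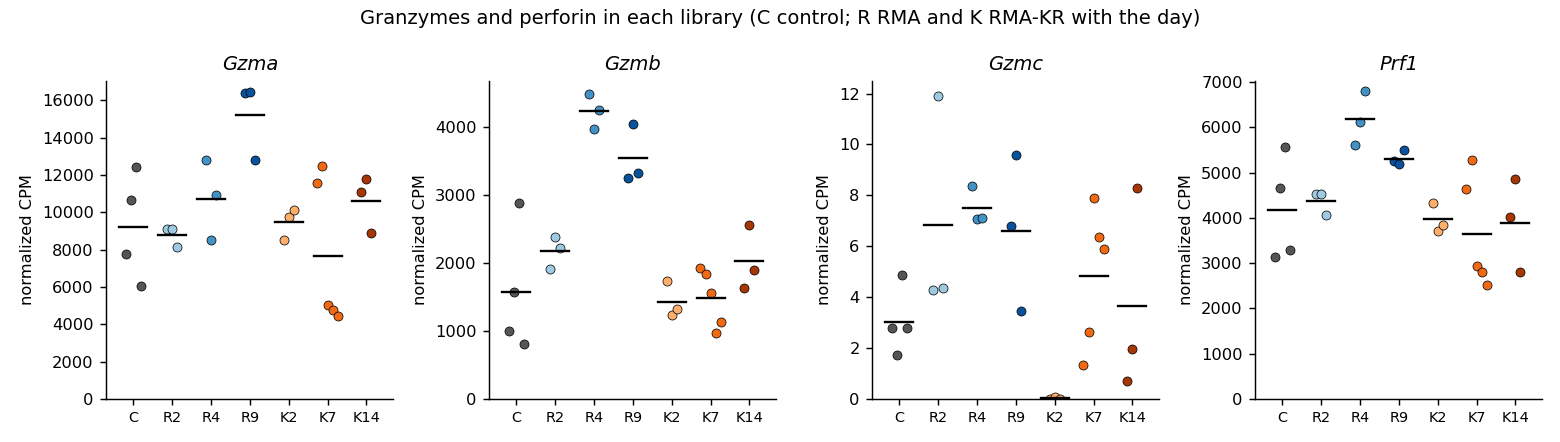
Levels of Gzma, Gzmb, Gzmc and Prf1 (normalized CPM, linear axes from 0) in each library; C is control, R and K are RMA and RMA-KR with the day, and bars are means. Gzmb is at 3973 to 4489.6 CPM on day 4 of RMA, above all controls, and Gzma and Prf1 split the 5 day 7 libraries of RMA-KR into 2 high and 3 low.

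Gzmc, granzyme C, was rare and almost missing on day 2 of RMA-KR, where the 3 libraries held 1 count in all. The 4 controls held 110 counts, the 3 RMA early libraries 180 and the 5 RMA-KR intermediate libraries 233. Scaled to depth, control was 109.4 times RMA-KR early (95% counting interval 19.2 to 4359.7). The ratio was 263.5 (46.7 to 10466.6) for RMA early and 158.8 (28.2 to 6298.5) for RMA-KR intermediate. All 3 differences were called in the main fit, with edgeR adjusted p = 0.0483, 0.0187 and 0.0158, but these calls were not stable. That against control was lost in 13 of 15 alternatives, among them leaving out any 1 of the 7 libraries (edgeR adjusted p = 0.0716 to 0.185) and the 4 low libraries together (0.0821). That between the early groups was lost without RMA-KR early 3 (edgeR adjusted p = 0.0529) and in the fit of both groups alone (0.588). That of RMA-KR intermediate was lost without RMA-KR early 1 (edgeR adjusted p = 0.0625) or 3 (0.0555), without the 4 libraries low in immediate early genes (0.434) and with a term for them (0.173). It was also lost in the fit of both groups alone (0.167) and with the replicate number as a block (0.105). These intervals cover counting error only. No granule gene on the list other than Gzmb and Gzmc was called in the 8 comparisons.

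Of 11 other proteases that the members inhibit, 6 were tested, and 1 was called in any comparison. This was Ctss, cathepsin S, a lysosomal protease, at 171.8, 137.3 and 173.3 CPM in RMA intermediate against 50.6, 59.4, 72.7 and 58.9 in control. It rose by 1.41 against control (SE 0.28, edgeR adjusted p = 0.00762) and by 1.63 against RMA early (SE 0.31, edgeR adjusted p = 0.00881). Without the low libraries these were 1.42 (edgeR adjusted p = 0.0169) and 1.62 (0.00959). The second call was lost without RMA early 1 (edgeR adjusted p = 0.0667) and in the fit of both groups alone (0.0584). Ctss and Serpina3g, a cathepsin inhibitor, were therefore both called on day 4 of RMA in either comparison. The 9 dendritic cell markers summed to 848.3 to 955.8 CPM there, above the 415.3 to 718.9 of control and overlapping the 610.7 to 899.8 of RMA early. Most of this sum is Itgax, and 4 of the 9 markers had no counts in RMA intermediate. The part of dendritic cells in the Ctss and Serpina3g levels was not tested. Of the 6 proteases, 3 were higher than in control there, with a median of -0.01 against -0.29 for all genes, and the 1 called stands beside 1.65% of all genes called.

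Of 10 receptors and partners of Serpine2, among them thrombin receptors and scavenger receptors, 9 were tested. F2rl2, a protease-activated receptor for thrombin, was the 1 called. It was higher on day 4 of RMA than in control, where 1.65% of all genes were called, by 1.19 (SE 0.2, edgeR adjusted p = 0.0019), and by 1.16 without the low libraries (0.0129). It read 127.1, 150.5 and 134.3 CPM there and 46.9, 57.4, 81.4 and 54.4 in control. On day 7 of RMA-KR, where Serpine2 was called, F2rl2 read 70.3 to 97.1 CPM. The median of the 9 was -0.61 in RMA intermediate against control and 0.44, the value of F2rl2, in RMA-KR intermediate against control. For all genes it was -0.29 and 0.01. Standard errors of single genes among the 9 reached 2.59 and 2.07, so these medians are imprecise and show no shift of the set.

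The table holds 68 genes with a serpin symbol, and 17 of the 62 outside the 6 members were tested. Serpina3f, a neighbour and near copy of Serpina3g, was the 1 called, in RMA intermediate against control, where 1.65% of all genes were. It read 120.4, 197.6 and 201.5 CPM in RMA intermediate against 12.9, 20.9, 41.6 and 53.5 in control, a rise of 2.42 (SE 0.62, edgeR adjusted p = 0.0343), and of 2.79 without the low libraries (0.0105). The call was lost without control 1 (edgeR adjusted p = 0.137), 2 (0.113) or 3 (0.0677) or RMA intermediate 1 (0.0509), 2 (0.119) or 3 (0.127). Reads of Serpina3f and Serpina3g could not be fully separated, as their transcripts share 50-base words. In RMA-KR intermediate Serpina3f read 13.5 and 27 CPM in replicates 1 and 2 and 113.4, 166.3 and 88.1 in the 3 libraries low in immediate early genes. This is the same split as for Serpina3g.

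The genes most like each member were found by the Pearson correlation of log2 normalized CPM over the 24 libraries, as a description. These libraries share groups, so a high value can come from few groups. For Serpine2 they were Prr5l (0.804), Rnf34 (0.726), Bcap29 (0.709), Pim2 (0.703) and Ugt1a7c (0.701). Prr5l, a partner of the mTORC2 kinase complex, went from 194 CPM in control to 356.6 in RMA-KR late, and Pim2, a survival kinase, from 85.5 to 238.6. For Serpinb9 they were Irf8 (0.853) and Phf11b (0.841). For Serpinb6b they were Srgn (0.925), the proteoglycan that packs granzymes, and Lgals3 (0.923). For Serpina3g they were Rps2 (0.933) and Lgals3bp (0.909), for Serpinb6a Dap (0.744) and Ptpn22 (0.722), and for Serpinb1a Irak1bp1 (0.802) and Fbl (0.707). Among the 15 pairs of members the values ran from -0.2 for Serpinb9 and Serpinb1a to 0.67 for Serpinb9 and Serpinb6b, and Serpine2 gave 0.05 to 0.48 with the others.

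The promoters of Serpinb9 and Serpina3g are shown because both genes were above control on day 4 of RMA and because each holds a motif searched for. The bases come from RefSeq (GRCm38.p6), 250 before to 50 after the start, in the direction of the gene, and 5 of the 6 members had an entry. The motifs searched were GAAA, any 2 bases and GAAA again (interferon-stimulated response element) and TTCNNNGAA (gamma-activated site). They were searched on both strands, and capitals mark a match.
Serpinb9, chr13:33004291-33004590, plus strand: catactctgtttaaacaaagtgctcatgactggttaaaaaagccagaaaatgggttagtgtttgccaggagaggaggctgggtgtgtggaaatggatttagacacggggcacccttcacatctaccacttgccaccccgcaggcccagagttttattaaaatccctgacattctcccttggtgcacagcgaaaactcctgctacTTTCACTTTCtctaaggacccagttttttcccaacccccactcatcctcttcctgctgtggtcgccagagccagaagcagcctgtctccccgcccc
Serpina3g, chr12:104235897-104236196, plus strand: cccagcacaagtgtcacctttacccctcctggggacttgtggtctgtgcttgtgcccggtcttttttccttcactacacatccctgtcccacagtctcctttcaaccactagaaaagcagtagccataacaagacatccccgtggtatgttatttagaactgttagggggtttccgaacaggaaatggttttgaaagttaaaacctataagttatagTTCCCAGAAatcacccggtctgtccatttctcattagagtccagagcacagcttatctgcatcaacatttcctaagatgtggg
Serpinb9 holds the first motif, which starts at -46, and Serpina3g the second, at -33. The first occurs in 3.44% and the second in 8.3% of the 32851 promoters in the table. Serpinb6a holds both at 1 of its 2 starts, where they overlap before the start, and the second occurs again after it. The windows of Serpine2 and Serpinb6b do not hold these letters, and that of Serpine2 is 77.7% G and C. Serpinb6b, without a motif, was also above all controls on day 4 of RMA, while Serpinb6a, with both, overlapped control. The promoters shown were picked for both traits, and a link between motif and level was not tested. A match is a description of letters and not of binding.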

How the data were processed

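RNA-seq libraries were made by the study from sorted spleen NK cells with an mRNA-seq kit. Per the submitters' processing notes, the authors used cutadapt 1.10, Bowtie2 2.2.8 (ribosomal RNA removal), STAR 2.5.3a and HTSeq 0.6.1p1 on mm10 with Ensembl 96. The values the authors deposited are raw counts of reads per gene, whole numbers for 45237 genes. Of 112 columns, the 24 count columns were used. A further 48 columns of per-library values were left aside, as were columns with fold changes and p-values of comparisons made by the submitters.

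The main test was edgeR 4.0.16 in R 4.3.3 (filterByExpr over the 7 groups, TMM, 1 mean per group, robust quasi-likelihood test), with limma 3.58.1. Each standard error is the log2 change over the root of its F value. DESeq2 1.42.0 was an alternative, also with betaPrior=TRUE, as the study used DESeq2 (1.16.1) in that way. The test was run on simulated data for RMA-KR intermediate: against control it called 136 of 200 genes changed 4-fold and 5 of 16897 unchanged ones. Against RMA-KR early it called 126 of 200 changed genes and 1 of 16897 unchanged ones. The simulated counts followed the model's own fitted spread, and changed genes were taken above a minimum mean level. No shift was put in for the libraries low in immediate early genes. The simulation therefore checks the procedure and not the calls in these data. Log2 CPM used a prior count of 2. Loops, positions and shared words came from the Ensembl 96 annotation, with Python 3.11.15, Biopython 1.88, SciPy 1.17.1 and matplotlib 3.10.9.

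Members and gene lists were chosen with earlier results of these data known. Genes other than members are named by a rule: Gzma, Gzmb and Prf1, every gene of the lists or with a serpin symbol called in a tested comparison, and the 5 (Serpine2) or 2 (other members) genes of highest correlation. Intervals cover counting error only.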

Additional observations from a re-analysis of the deposited data

How the results depend on the processing

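Alternatives were run for the members with an unadjusted p under 0.05 in a tested comparison, for the other genes called there and for all members at the late stage. The changes of the first kept their sign in all of them. The added difference of the changes of Serpina3g between the tumors (-0.02) turned to 0.02 without a filter on low counts, 0.25 with the replicate number as a block, 0.43 with a term for the 4 libraries low in immediate early genes, 0.54 without them, and -0.32 to 0.17 with 1 library left out. Among the late differences, none with a test, the sign turned for Serpinb1a against control without RMA late 3 (-0.78, from 1.32) and without RMA-KR late 2 (-3.11, from 0.99), and between the tumors for Serpinb1a (-1.77 to 4.44, from 0.34) and Serpinb6b (-0.09 to 0.44, from 0.08). The count of members called was 1 in RMA intermediate against control, RMA-KR intermediate against control and RMA intermediate against RMA early, 2 in RMA-KR intermediate against RMA-KR early and 0 in the other 4 comparisons, and it moved as follows. DESeq2 with default settings called 1 member in RMA early against control, 2 in RMA-KR intermediate against control, 1 in RMA early against RMA-KR early and 1 in RMA intermediate against RMA-KR intermediate. With betaPrior=TRUE it called 0 in RMA-KR intermediate against control, where it gave no adjusted p for Serpine2, and 1 in RMA intermediate against RMA-KR intermediate, as did edgeR without a filter on low counts. With only the libraries of both groups in the fit, 0 members were called in RMA-KR intermediate against control, RMA intermediate against RMA early and RMA-KR intermediate against RMA-KR early. With a term for the 4 libraries low in immediate early genes, or without them (both chosen after seeing the data), 0 members were called in RMA-KR intermediate against control and against RMA-KR early. Leaving out 1 library at a time gave 0 to 1 members in RMA intermediate against control and in RMA-KR intermediate against control, and 0 to 2 in RMA intermediate against RMA early and in RMA-KR intermediate against RMA-KR early. Replicate numbers did not pair the libraries: 3 of 64 same-number pairs had a correlation of deviations over 0.1, with a median of -0.00711 against 0.0028 for other numbers. With the replicate number as a block, 1 member was called in RMA-KR intermediate against RMA-KR early (Serpine2, 2.92, edgeR adjusted p = 0.0224), Serpina3g giving 0.96 (0.27), and Serpine2 against control gave 2.78 (0.0113), while Serpinb6b in RMA intermediate gave 0.7 (0.136) against control and 0.89 (0.0528) against RMA early. The block also took Gzmc out of the calls in RMA-KR early against control (0.158) and in RMA-KR intermediate against RMA-KR early (0.105). Over all genes the counts called ranged widely: 0 (0 to 103 under the alternatives) in RMA early against control, 14 (0 to 148) in RMA-KR early, 282 (162 to 737) in RMA intermediate and 3 (0 to 56) in RMA-KR intermediate against control, 52 (1 to 297) between the early groups, 86 (34 to 305) between the intermediate groups, 295 (48 to 911) from early to intermediate in RMA and 79 (0 to 458) in RMA-KR. Counts were low for Serpinb1a, at 0 in 7 libraries, and for Serpine2 in control, at 19 in its lowest library, which limits the precision of their levels. The causes of these moves were not tested.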
